A study of Mus musculus with 10 samples.

Results

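The genes described here are the replication-dependent histone genes of the mouse, taken as every protein-coding gene of GENCODE M21 on mm10 whose symbol begins with Hist1h, Hist2h, Hist3h or Hist4h. The rule found 67 genes among 21951 protein-coding genes, namely 6 for the linker histone H1, 18 for H2A, 18 for H2B, 12 for H3 and 13 for H4. They were examined in F123 cells, a mouse embryonic stem cell line from a cross between Mus musculus castaneus and S129/SvJae, for which the labels name no treatment and no engineered allele. The deposited data used were a list of 33487 H3K4me3 ChIP-seq peaks, from 2 replicates of 2000000 fixed cells, and a list of 179109 ATAC-seq peaks, from 2 replicates of 100000 cells. H3K4me3, the trimethylated lysine 4 of histone H3, is enriched at gene starts, and ATAC-seq reports DNA that is accessible to the Tn5 transposase. Expression was not measured here. Each list stands for both replicates at once and carries no read counts, so no value has a spread between replicates, the depth is unknown, and differences between genes are given as descriptions without a test.

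Replication-dependent histone genes supply the histones that package newly copied DNA, and they are expressed mainly in S phase. Most are small genes without introns, many copies of which sit side by side, and their mRNAs end in a stem-loop in place of a poly(A) tail. The large cluster Hist1 also holds genes whose products replace the usual histones in the testis: Hist1h2ba and Hist1h2aa, which encode the testis forms of H2B and H2A, and Hist1h1t, which encodes the testis linker histone. In this annotation the 67 genes were 312 to 37455 bp long, with a median of 539 bp, against a median of 17400 bp over all protein-coding genes. Of the labelled cell type's markers, 8 of 9 embryonic stem cell genes had an H3K4me3 peak within 1 kb of the start. Esrrb had none there, but a peak lay elsewhere over the gene. At the 8 genes the fold enrichment, the ratio of ChIP signal to the background of the peak caller, had a median of 25.5. It ran from 13.1 at Dppa3 to 42.9 at Sox2. The cells were kept on fibroblast feeders and, per the labels, passaged once without feeders before harvest. Of 9 fibroblast genes, 6 had a peak within 1 kb of the start, with a fold enrichment of 3.39 at Dcn to 20.4 at Col1a2 and a median of 16.2. Col3a1, Postn and Lum had none there, but at Col3a1 a peak lay elsewhere over the gene. Over all protein-coding genes the share with a peak within 1 kb of the start was 65.1%. The part of other cells in the histone gene peaks was not tested.

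An H3K4me3 peak lay within 1 kb of the annotated start of 60 of the 67 histone genes, or 89.6% (95% Wilson interval 80.0 to 94.8%, counting error only). Over all protein-coding genes the share was 65.1%. An ATAC-seq peak lay within the same distance of 65 histone genes, or 97.0% (89.8 to 99.2%), against 70.9% of all protein-coding genes. Both kinds of peak were present at 59 histone genes, or 88.1%, against 64.3%. An ATAC-seq peak without an H3K4me3 peak was found at 6 histone genes, or 8.96%, against 6.59% of all genes, a share near the background. Over the body of the gene, from its annotated start to its end, H3K4me3 peaks were found at 59 histone genes and ATAC-seq peaks at 66, against 71.2% and 81.0% of all protein-coding genes. Neighbouring histone genes shared peaks, and the 67 windows held 57 different H3K4me3 peaks and 57 different ATAC-seq peaks.

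**Figure D1:**
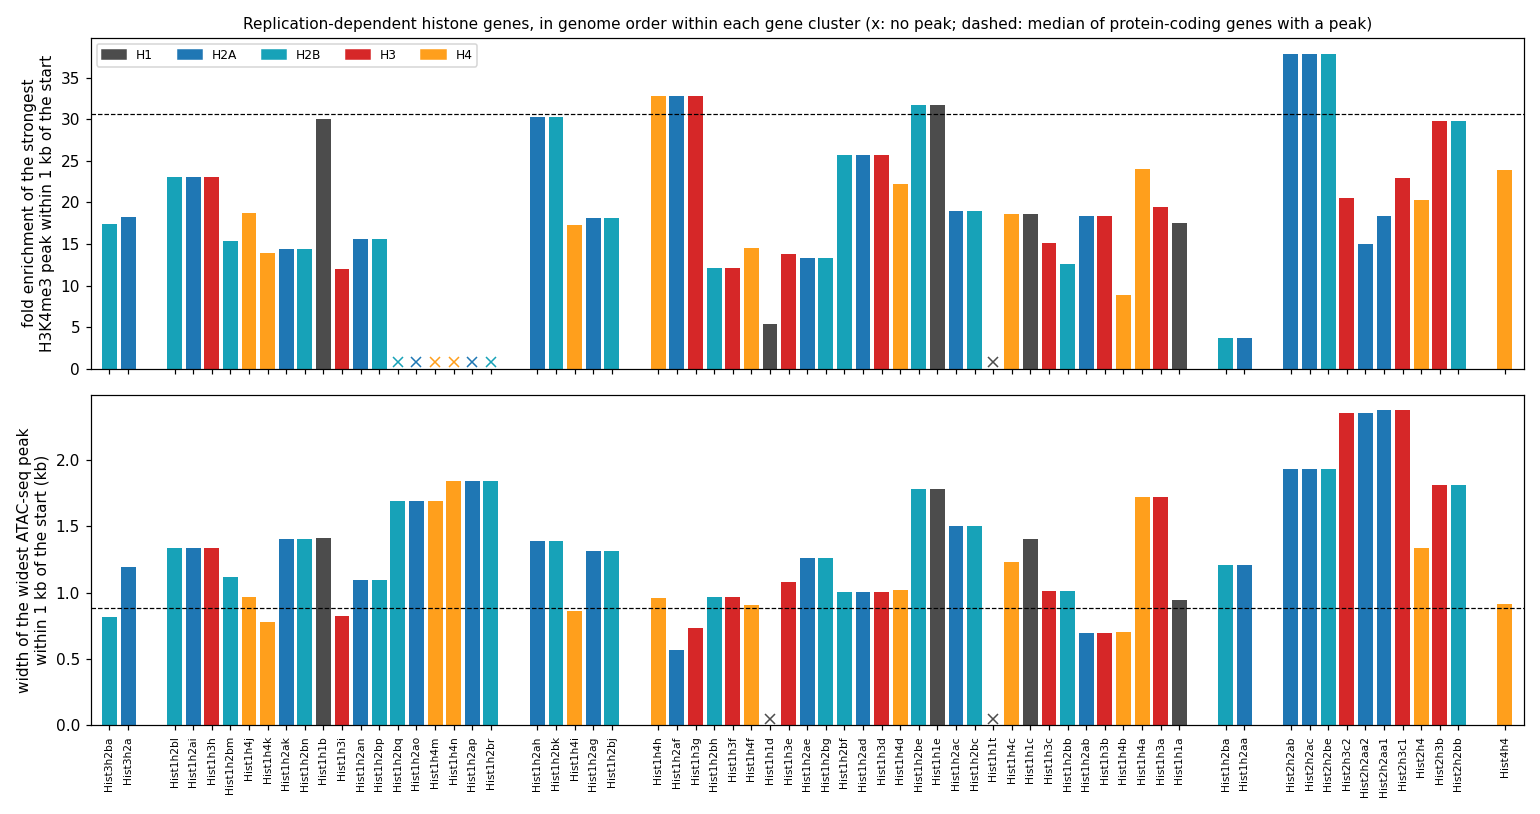
Each bar is 1 histone gene, in genome order within its cluster (gaps separate the clusters), coloured by histone class. The upper panel gives the fold enrichment of the strongest H3K4me3 peak within 1 kb of the start and the lower panel the width in kb of the widest ATAC-seq peak. Crosses mark genes with no peak and dashed lines the medians over protein-coding genes with a peak (30.6 and 883 bp). Of the 60 bars in the upper panel, 8 rise above the line, and 56 of the 65 in the lower panel do.

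The H3K4me3 peaks of histone genes were weaker than those of most marked genes, while the widest ATAC-seq peaks near their starts were wider. For the 60 histone genes with an H3K4me3 peak, the strongest peak within 1 kb had a median fold enrichment of 18.6 (quartiles 14.9 and 25.7), whereas over the 14295 protein-coding genes with a peak the median was 30.6 (quartiles 20.4 and 40.2). Only 8 of the 60 exceeded the latter median, and each of these shares its peak with another histone gene. Here and below, a shared peak was counted at each of its genes. The median width of these peaks was 1787 bp for the histone genes and 2163 bp for all marked genes, and 24 of the 60 exceeded 2163 bp. The median −log10 q, the authors' measure of the significance of each peak, was 170.4 against 447.3. No histone gene stood in the top 10% of the whole list by fold enrichment. The widest ATAC-seq peak at the 65 genes that had one was 565 to 2374 bp, with a median of 1314 bp, against 883 bp for all protein-coding genes with an ATAC-seq peak. It exceeded 1000 bp at 49 of the 65 (75.4%), compared with 36.3% of all genes with a peak. The widest peak in the window need not lie over the start and can belong to a neighbouring gene. At Hist1h3h, for example, the peak over the start was 656 bp wide and the widest 1335 bp. The windows of 2 kb around histone gene starts had a median GC content of 49.4% and a median CpG observed-to-expected ratio of 0.757. The same values were 54.1% and 0.608 at the other marked protein-coding genes.

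The strongest H3K4me3 peak over any histone gene was shared by Hist2h2ab, Hist2h2ac and Hist2h2be on chromosome 3. This peak covered 100.0% of Hist2h2ab and Hist2h2ac and 54.5% of Hist2h2be, and the non-histone gene Bola1 also lies at it. It was 3809 bp wide (chr3:96218739-96222547) reaching 37.9 in fold enrichment and 473.1 in −log10 q. Next came the peak shared by Hist1h4h, Hist1h2af and Hist1h3g (fold enrichment 32.7) and the peak shared by Hist1h2be and Hist1h1e (31.7). The first of these was also the widest, at 8353 bp (chr13:23529638-23537990), and covered 100.0% of each of its 3 genes. Other wide peaks lay over the linker histone genes Hist1h1c, with 4642 bp, and Hist1h1b, with 3864 bp. At the other end, Hist1h2ba and Hist1h2aa had a fold enrichment of 3.72, Hist1h1d of 5.34 and the H4 gene Hist1h4b of 8.84. The narrowest strongest peaks were the 334 bp peak of Hist1h2ba and Hist1h2aa, the 394 bp peak of Hist2h2aa2, 1 of a duplicated H2A gene pair, and the 615 bp peak of Hist1h1d.

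By histone class, all 12 H3 genes had an H3K4me3 peak, as did 16 of 18 H2A genes, 16 of 18 H2B genes, 11 of 13 H4 genes and 5 of 6 H1 genes. The median fold enrichment was 18.6 for H1, 18.4 for H2A, 17.7 for H2B, 20.0 for H3 and 18.7 for H4, so the classes differed far less in their medians than genes did within any class. Widths ranged more, from a median of 1449 bp for H2A to 3372 bp for H1. The widest ATAC-seq peaks within 1 kb had medians of 964 bp for H4, 1046 bp for H3, 1324 bp for H2B, 1361 bp for H2A and 1406 bp for H1. All 13 H4 genes encode 1 and the same protein of 103 residues, in 12 different coding sequences, yet the fold enrichment at the 11 marked H4 genes ran from 8.84 at Hist1h4b to 32.7 at Hist1h4h. A single H2A protein of 130 residues is encoded by 9 genes. Of these, 7 were marked, between 13.3 at Hist1h2ae and 25.7 at Hist1h2ad. The commonest H3 protein is shared by 7 genes, which ran from 12.1 at Hist1h3f to 29.8 at Hist2h3b.

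The genes fell into 7 runs in which neighbouring genes were less than 100 kb apart. Of these, 4 lay on chromosome 13 and made up Hist1. The main run of Hist1 held 29 genes in 233357 bp (chr13:23531050-23764406), where H3K4me3 peaks were found at 28 starts and ATAC-seq peaks at 27. H3K4me3 peaks covered 22.6% of that run and ATAC-seq peaks 12.5%. The run that begins with Hist1h2bl held 18 genes in 121768 bp (chr13:21715763-21837530), where 12 starts had H3K4me3 and all 18 had ATAC-seq peaks. A compact run of 5 genes from Hist1h2ah to Hist1h2bj spanned 8513 bp, with 56.1% under H3K4me3 peaks and all 5 genes marked. The testis pair Hist1h2ba and Hist1h2aa formed a run of its own. On chromosome 3, the 10 Hist2 genes spanned 50268 bp and all had both peaks. Hist3h2ba and Hist3h2a on chromosome 11 had fold enrichments of 17.4 and 18.2, and Hist4h4 on chromosome 6 had 23.9. The only other protein-coding genes inside these runs were Trim17, an E3 ubiquitin ligase gene that shares its start with Hist3h2a, and Hfe, the gene of a regulator of iron uptake. Both had both peaks.

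**Figure D2:**
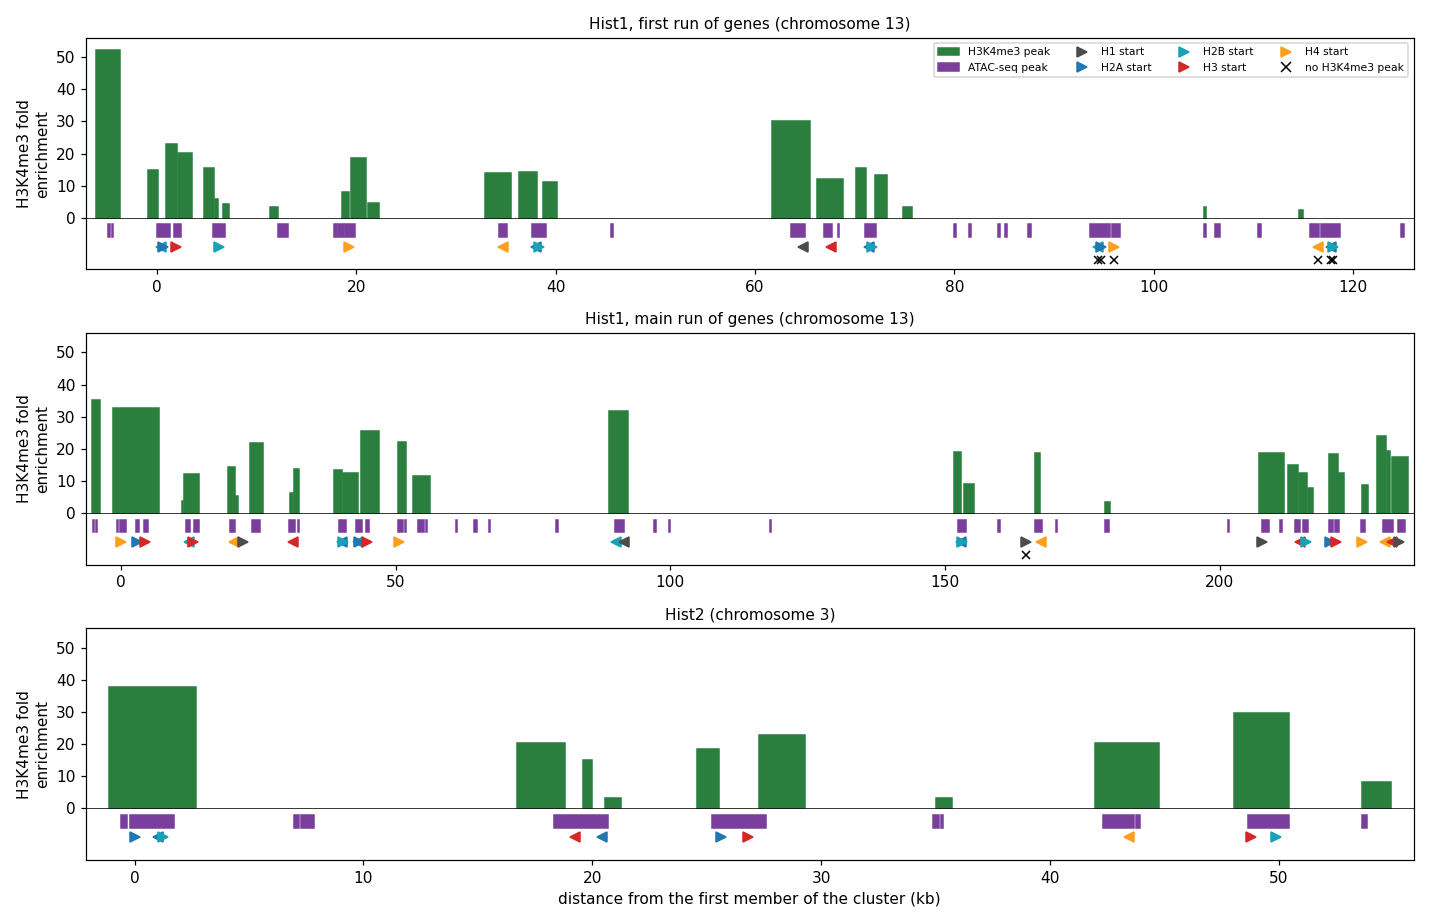
Peaks along 3 of the gene runs, with distance in kb from the first histone gene. Green boxes are H3K4me3 peaks, as high as their fold enrichment, purple boxes are ATAC-seq peaks, and arrowheads are gene starts coloured by class and pointing along the gene. The crosses mark the starts with no H3K4me3 peak within 1 kb, which are 6 of 18 in the first run, 1 of 29 in the main run and 0 of 10 in Hist2.

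Joined across gaps of up to 1 kb, the H3K4me3 peaks formed 31 domains within 1 kb of histone gene starts. They were 986 to 9965 bp long, with a median of 3123 bp. Over the 28934 domains of the whole list joined in the same way the median was 1414 bp. The whole list includes peaks away from gene starts, and domains at other marked genes were not measured. Single peaks had a median width of 1135 bp over the whole list. The strongest peaks at marked protein-coding genes had 2163 bp. Of the 31, 19 lay within 1 kb of the starts of at least 2 histone genes, and 12 within 1 kb of 1 start. The longest domain (chr13:23738169-23748133, 4 peaks) held Hist1h1c, Hist1h3c and Hist1h2bb, and 99.8% of the domains of the list were shorter. The domain with most genes was 8066 bp long and held 5, namely Hist1h2ae, Hist1h2bg, Hist1h2bf, Hist1h2ad and Hist1h3d. In the run from Hist1h2bl the longest domain, of 7166 bp, held Hist1h4k, Hist1h2ak and Hist1h2bn. In the compact run it was 5282 bp long and held Hist1h4i, Hist1h2ag and Hist1h2bj. In Hist2 it was 4520 bp long, over Hist2h3c2 and Hist2h2aa2. At the Hist3 genes the longer domain had 3748 bp, at Hist4h4 2131 bp, and at the testis pair 1572 bp.

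Although most histone genes had an H3K4me3 peak nearby, the start itself often lay outside the called peaks. The list holds called peaks and no signal between them, so a base outside a peak may still carry the mark below detection. At 11 of the 67 genes the annotated start is the first base of the start codon, so no transcribed bases before it are annotated. Of the 60 marked genes, 40 (66.7%, Wilson interval 54.1 to 77.3%) had the start base under an H3K4me3 peak, compared with 93.8% of the marked protein-coding genes. An ATAC-seq peak lay over the start base of 58 of the 60 (96.7%), compared with 90.8%. At 19 histone genes the ATAC-seq peak covered the start and the H3K4me3 peaks did not, a state found at 2.88% of all marked genes. For the 20 uncovered starts, the nearest H3K4me3 peak began 20 to 852 bp away, with a median of 208.5 bp. In 30 of the 60 genes (50.0%) the window held at least 2 separate H3K4me3 peaks, compared with 6.69% of all marked genes. Over all 67 genes, unmarked ones included, H3K4me3 peaks reached 85.1% of the genes at 450 bp downstream and dropped to 46.3% at 100 bp upstream. At the other marked protein-coding genes they were highest, at 96.4%, at 200 bp downstream. The ATAC-seq peaks of histone genes were highest, at 97.0%, at 200 bp downstream.

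**Figure D3:**
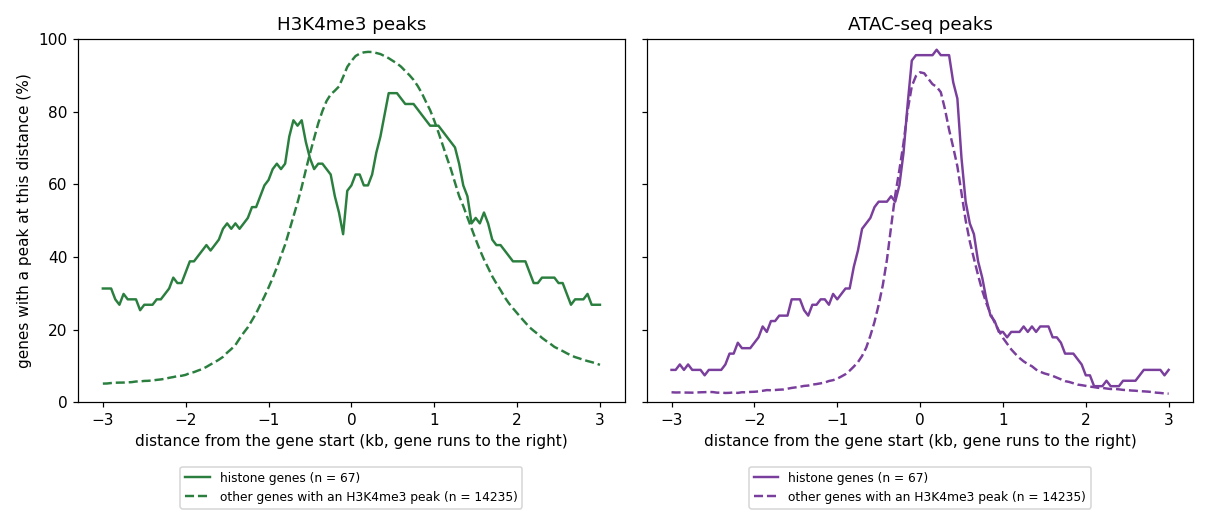
Share of genes, in percent, with a peak at each distance in kb from the start, every 50 bp. Solid lines are all 67 histone genes, unmarked ones included, and dashed lines the 14235 other protein-coding genes marked by H3K4me3. The H3K4me3 line of the histone genes dips to 46.3% just upstream of the start where the dashed line stays high, while the ATAC-seq lines are both highest near the start.

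This dip was clearest at histone genes that start back to back. There were 13 pairs of neighbouring histone genes that point away from each other with starts within 1 kb, 12 of H2A with H2B and 1 of H2B with H3, and the starts of a pair were separated by 175 to 659 bases (median 267). Of the 11 pairs with any H3K4me3 peak, 9 (81.8%) had a peak on each side and a gap between them that held the midpoint. Among the 698 marked pairs of other protein-coding genes of the same layout, 33 (4.73%) had such a gap. The gaps were 184 to 891 bp long, with a median of 538 bp. The 2 exceptions were Hist2h2ac with Hist2h2be and Hist1h2bh with Hist1h3f, whose whole space between the starts lay under an H3K4me3 peak. A single ATAC-seq peak of 1002 to 1933 bp spanned both starts of 12 of the 13 pairs, including the 2 pairs with no H3K4me3 peak. At the other marked pairs, 91.3% had an ATAC-seq peak over both starts. At Hist1h2an and Hist1h2bp, for example, the H3K4me3 peaks (fold enrichment 15.6 and 13.3) left 891 bp uncovered, and an ATAC-seq peak of 1095 bp (chr13:21786845-21787939) filled that space. At Hist1h2ae and Hist1h2bg the gap was 194 bp, between peaks of 13.3 and 12.4, within an ATAC-seq peak of 1260 bp. The start of Hist1h2ac lay under a peak of 19.0, while that of its partner Hist1h2bc was 181 bp from the nearest peak. Outside the pairs, 29 of 38 marked starts lay under an H3K4me3 peak, and within them 11 of 22.

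**Figure D4:**
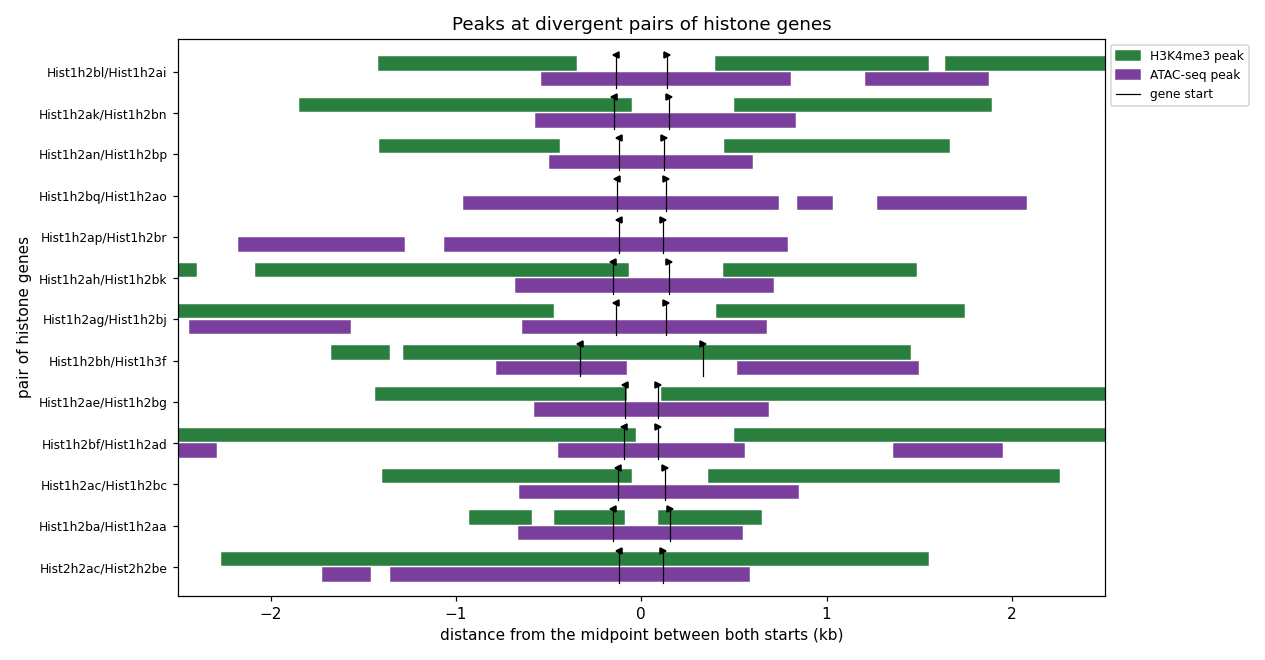
H3K4me3 peaks (green) and ATAC-seq peaks (purple) at the 13 divergent pairs, 1 pair a row, against the distance in kb from the midpoint of both starts. Black lines with arrowheads are the starts. In 9 rows a green gap of 184 to 891 bp holds the midpoint, and in 12 rows 1 purple box spans both starts.

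The sequence between the starts of Hist1h2ac and Hist1h2bc (chr13:23683949-23684198, plus strand, RefSeq genome GRCm38.p6, the same build as mm10) is shown because it overlaps such a gap. Its first 70 bases lie under the peak of 19.0, and the remainder belongs to the gap of 418 bp (chr13:23684019-23684436). Capitals mark 3 motifs on either strand, which are the TATA box (letters TATAAA), the CCAAT box and the octamer (letters ATTTGCAT) bound by POU factors such as Oct1.
Hist1h2ac to Hist1h2bc: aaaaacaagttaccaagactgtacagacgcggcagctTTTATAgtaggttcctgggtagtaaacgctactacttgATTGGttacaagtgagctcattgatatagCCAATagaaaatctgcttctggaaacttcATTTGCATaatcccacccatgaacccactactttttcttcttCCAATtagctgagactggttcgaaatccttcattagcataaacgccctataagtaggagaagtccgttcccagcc
Of all 67 histone genes, 37 (55.2%) had TATAAA between 250 bases before and 50 bases after the start, on either strand, against 12.6% of 21938 protein-coding genes with that window in the genome file. CCAAT was present at 56 (83.6%), against 39.0%. The octamer ATTTGCAT was present at 15 (22.4%), against 1.57%, and all 15 were H2A genes (7) or H2B genes (8), where the genes of a divergent pair share much of their windows. CCAAT was found at all 18 H2A genes, all 18 H2B genes, 11 of 12 H3 genes, 5 of 6 H1 genes and 4 of 13 H4 genes. A match is a description of the letters and not of a bound site.

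The testis pair of H2B and H2A genes carried weak H3K4me3 peaks. Hist1h2ba (chr13:23933773-23934156, minus strand) and Hist1h2aa have 305 bases between their starts, and 3 H3K4me3 peaks of 334, 375 and 552 bp lay around them. Their fold enrichments were 3.72, 3.53 and 3.13, with −log10 q of 6.99, 7.63 and 7.73. These −log10 q values were the lowest of any peak at a marked histone gene. The value of 3.72 was the lowest among the strongest peaks of each gene, while a weaker peak at Hist2h2aa2 had 3.28. Both start bases were covered by an H3K4me3 peak. One ATAC-seq peak of 1206 bp (chr13:23933648-23934853) covered 100.0% of both genes, which is within the range of the other divergent pairs. Over the list as a whole, 21.3% of H3K4me3 peaks had a lower fold enrichment than 3.72. The CpG observed-to-expected ratio was 0.65 and 0.627 in the 2 windows. The protein of Hist1h2ba shares 87.4% of aligned residues with Hist1h2bc, and Hist1h2aa 88.5% with Hist1h2ab. The first 300 bases between the pair (chr13:23934157-23934456, plus strand, reading away from Hist1h2ba) are shown because they hold the same motifs as the pair above.
Hist1h2ba to Hist1h2aa: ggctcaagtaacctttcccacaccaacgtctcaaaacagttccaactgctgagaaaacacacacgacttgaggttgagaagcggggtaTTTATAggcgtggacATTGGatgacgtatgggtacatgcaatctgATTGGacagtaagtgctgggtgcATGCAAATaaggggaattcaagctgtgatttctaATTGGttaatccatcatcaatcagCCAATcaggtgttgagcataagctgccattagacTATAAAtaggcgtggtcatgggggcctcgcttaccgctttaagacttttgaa

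Only Hist1h1t, the testis linker histone gene, had neither peak within 1 kb of its start (chr13:23695814). The nearest H3K4me3 peak began 1585 bp away, and it was the peak of the next gene, Hist1h4c, with a fold enrichment of 18.6. The nearest ATAC-seq peak was 1690 bp away. No peak of either list covered any base of the gene. None of the 50-base sequences (50-mers) in its 2 kb window occurs elsewhere in the genome, so the window was fully unique at that length. The encoded protein of 209 residues shares 54.1% of aligned positions with Hist1h1e and 54.4% with Hist1h1a, which are linker histone genes with both peaks (fold enrichment 31.7 and 17.5). The CpG ratio of its window was 0.414. Both promoters, from 250 bases before the start to 49 after it, are shown to compare an unmarked with a marked linker histone gene, Hist1h1t at chr13:23695564-23695863 on the plus strand and Hist1h1e at chr13:23622509-23622808 on the minus strand, with the same capitals.
Hist1h1t: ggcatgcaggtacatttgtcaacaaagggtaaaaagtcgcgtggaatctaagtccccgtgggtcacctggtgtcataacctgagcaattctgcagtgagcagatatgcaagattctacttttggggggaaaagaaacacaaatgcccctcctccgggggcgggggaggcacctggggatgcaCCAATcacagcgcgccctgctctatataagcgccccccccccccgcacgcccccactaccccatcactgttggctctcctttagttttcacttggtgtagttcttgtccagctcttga
Hist1h1e: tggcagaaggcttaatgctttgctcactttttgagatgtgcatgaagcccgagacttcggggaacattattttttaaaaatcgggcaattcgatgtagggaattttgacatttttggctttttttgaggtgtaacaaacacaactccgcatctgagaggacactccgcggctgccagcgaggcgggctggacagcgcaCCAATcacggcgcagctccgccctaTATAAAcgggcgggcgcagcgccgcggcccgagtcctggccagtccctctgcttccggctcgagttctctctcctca
Hist1h1e holds CCAAT and TATAAA. Hist1h1t holds CCAAT, and no TATAAA was found in its window. It does hold the similar letters tatataag before the start, and TATA boxes spelled otherwise than TATAAA were not searched for.

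The other 6 genes without an H3K4me3 peak were Hist1h2bq, Hist1h2ao, Hist1h4m, Hist1h4n, Hist1h2ap and Hist1h2br, all next to each other and all with an ATAC-seq peak over the start. They sit in 2 arms of an inverted repeat, of 19836 bp (chr13:21792574-21812409) and 20558 bp (chr13:21830720-21851277). In these arms 92.2% and 92.8% of the bases belong to 50-mers that stand in reverse complement elsewhere in the stretch. No H3K4me3 peak touched the first arm and 1 touched the second. Their ATAC-seq peaks were 1694 bp wide at Hist1h2bq and Hist1h2ao, which share a peak, and 1844 bp at Hist1h2ap and Hist1h2br, against a median of 1361 bp over the 12 peaks that span a pair. The ATAC-seq peaks over the H4 genes Hist1h4m and Hist1h4n themselves were 797 and 891 bp wide. The nearest H3K4me3 peak was 1483 bp from Hist1h4n and 10556 bp from Hist1h2bq, with a fold enrichment of 2.49 and 3.40. The bases between the starts of each pair are shown because the one is contained without a change in the other: 267 bases at chr13:21810198-21810464 on the plus strand, and 235 bases at chr13:21833508-21833742 on the minus strand, with capitals as before.
Hist1h2bq to Hist1h2ao: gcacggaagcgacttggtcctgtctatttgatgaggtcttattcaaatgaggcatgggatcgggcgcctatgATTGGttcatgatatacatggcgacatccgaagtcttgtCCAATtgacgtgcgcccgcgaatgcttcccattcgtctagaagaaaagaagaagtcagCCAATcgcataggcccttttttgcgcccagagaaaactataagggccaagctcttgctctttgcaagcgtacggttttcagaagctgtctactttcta
Hist1h2br to Hist1h2ap: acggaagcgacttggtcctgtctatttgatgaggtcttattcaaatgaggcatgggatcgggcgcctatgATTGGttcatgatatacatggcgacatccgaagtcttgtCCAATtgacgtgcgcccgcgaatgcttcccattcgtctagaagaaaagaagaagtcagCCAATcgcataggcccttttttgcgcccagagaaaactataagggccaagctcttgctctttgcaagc

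Between 92.2% and 100.0% of the 50-mers in the 2 kb windows of these 6 genes occur elsewhere in the genome. Over all 67 windows the median was 20.7%, and 10 windows reached 50%. The remaining 4 of those 10 belong to duplicated Hist2 genes in mirrored order, Hist2h3c2 and Hist2h2aa2 on one side and Hist2h2aa1 and Hist2h3c1 on the other. Recurring 50-mers made up 78.1% of the window of Hist2h3c2, 76.6% of Hist2h3c1, 55.8% of Hist2h2aa2 and 55.5% of Hist2h2aa1. All 4 had an H3K4me3 peak within 1 kb, with fold enrichments of 15.1 to 22.9, but none had the start base under it, and their ATAC-seq peaks of 2356 and 2374 bp were the widest of any histone gene. Taking each base of the 67 windows once, 80.3% of the 81613 bases that lie in at least 1 unique 50-mer were under an H3K4me3 peak, against 33.6% of the 18652 bases that lie in none. For ATAC-seq peaks the shares were 47.9% and 87.9%. The 18652 bases include those of the 6 genes above, whose windows have no base under an H3K4me3 peak. The shares were not separated by distance from the start. The gaps between H3K4me3 peaks of divergent pairs had 0.0 to 51.9% of such recurring bases, with a median of 39.7%. The pairs Hist1h2ae with Hist1h2bg and Hist1h2ba with Hist1h2aa had gaps without any. Of the start bases, 63 lay in unique 50-mers and 40 of these were under an H3K4me3 peak. The other 4 belong to Hist1h2bq, Hist1h2ao, Hist1h2ap and Hist1h2br, which are among the 6 genes already described as having no such peak. The part of recurring sequence in these gaps and in the 6 unmarked genes was not tested, and how the reads that match several places were handled is not given in the sources used here for the H3K4me3 list. Without the 6 genes, 60 of 61 histone genes (98.4%) had an H3K4me3 peak within 1 kb. The 6 were left out after seeing the data and all lack the peak, so this share could only rise.

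**Figure D5:**
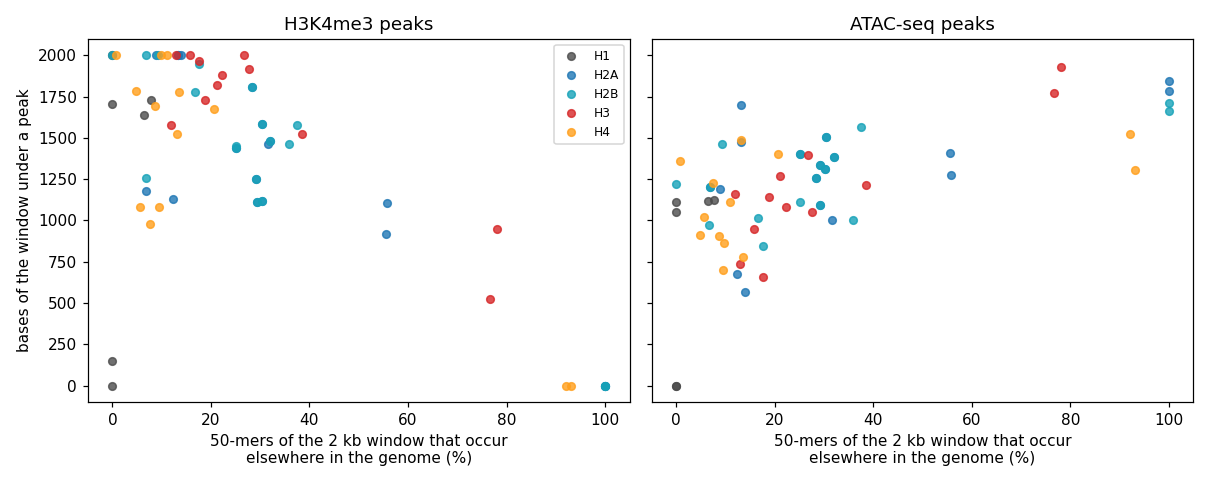
Bases of each 2 kb window under a peak against the percentage of its 50-mers that occur elsewhere in the genome, 1 point a gene, coloured by class. At the right, the 6 windows above 90% have 0 bases under H3K4me3 peaks (left panel) and 1303 to 1843 under ATAC-seq peaks (right panel). The 2 points at 0% with little or no H3K4me3 are Hist1h1t and Hist1h1d.

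The annotated start lay more than 1 kb from the start codon at 2 genes, and it decided their values. At 11 other genes it is the first base of the start codon, and at Hist1h3f it lies 433 bp from the start codon. The ATAC-seq peak missing from the annotated start of Hist1h3f was 194 bp away. Covered starts, gaps and pairs all follow these annotated starts. The gene Hist1h1d had a weak H3K4me3 peak (fold enrichment 5.34, 615 bp), shared with Hist1h4f. This peak ends 852 bp from the annotated start of Hist1h1d, which had no ATAC-seq peak within 1 kb. Its start codon lies 1828 bp further along, at chr13:23555090, and within 1 kb of it lay a stronger H3K4me3 peak (fold enrichment 21.9, 2351 bp) as well as an ATAC-seq peak of 1422 bp, both over the start codon. The annotated start of Hist1h2be lies 35168 bp from its start codon, next to Hist1h1e, and its peak of 31.7 is the peak of that gene. Around its start codon at chr13:23585956 an H3K4me3 peak of 3066 bp had a fold enrichment of 11.8. When the start codon stood for the start in all 67 genes, an alternative chosen after seeing the data, H3K4me3 peaks were found at 60 genes and ATAC-seq peaks at 66, that is, at all but Hist1h1t.

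The 3′ ends of these genes carry the stem-loop that binds SLBP, the stem-loop binding protein of histone mRNAs. A hairpin of this form (a stem of 6 base pairs opening with GG and closing with CC, and a loop of 4 bases that begins with TT) was found within 150 bases after a stop codon of 63 of the 67 genes, against 0.428% of 21938 protein-coding genes. It lay 21 to 58 bases after the stop codon, with a median of 30. The 4 without it were Hist1h2an, Hist1h3g, Hist1h4a and Hist2h2be. The 3 commonest of the 6 forms are shown, with the loop and the stem in capitals, since they are the whole element.
Form of 41 genes: GGCTCTTTTCAGAGCC
Form of 9 genes: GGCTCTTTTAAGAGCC
Form of 8 genes: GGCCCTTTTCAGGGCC
The form of 8 genes was found only at H4 genes, among them Hist4h4 and the unmarked Hist1h4m and Hist1h4n. Hist1h1t, Hist1h2ba and Hist1h2aa all had a hairpin, the first and the second of these in the form of 9 genes.

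For comparison, 10 of 14 replication-independent histone genes, which are expressed outside S phase as well, had an H3K4me3 peak within 1 kb. Their strongest peaks had a median fold enrichment of 37.9 and a median width of 2704 bp, and 9 of the 10 covered the start base. H2afz, the gene of the variant H2A.Z, had a fold enrichment of 51.2, H3f3a, a gene of H3.3, 49.9, and Cenpa, the gene of the centromeric H3, 44.9. Among the 4 without a peak, H1foo, the oocyte linker histone gene, H1fnt and Hils1, both spermatid linker histone genes, had none over the gene either, while H3f3b had a peak within the gene. H1f0, the replacement linker histone gene, had 27.5. Of 19 genes for the transcription and processing of histone mRNAs and for the deposition of histones, 18 had both peaks, with a median fold enrichment of 42.7 and 17 of 18 start bases covered. Npat, the coactivator that sits at histone gene clusters, had 35.8, Casp8ap2, which encodes the processing factor FLASH, 53.1, Slbp 42.6, and the chaperone gene Nasp 55.5. Zfp473 was the gene without a peak within 1 kb, and it had a peak within the gene. Only 2 peaks at histone genes themselves, those of Hist2h2ab, Hist2h2ac and Hist2h2be and of Hist1h4h, Hist1h2af and Hist1h3g, exceeded 32 in fold enrichment. The first of these peaks also lies at the non-histone gene Bola1.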

How the data were processed

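Both lists came from F123 cells. For H3K4me3, the authors ran the ENCODE histone pipeline with default parameters, with mm10 as the build per the labels and the aligner not given in the sources used here. The deposited columns used were positions, a fold enrichment (a ratio) and −log10 q. The deposited display score was not used. The ATAC-seq reads were mapped to mm10 with Bowtie 1.1.2 and peaks were called with MACS2 2.1.1.20160309. Those present in both replicates were kept with bedtools 2.27.1, and the deposited list holds positions only. Neither list has counts, so depth and replicate spread are unknown. Reads of this hybrid line were compared with 1 reference genome.

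A gene was marked when a peak shared at least 1 bp with the 1 kb on either side of the annotated 5′ end. The strongest peak was that of highest fold enrichment in the window. Peaks up to 1 kb apart formed a domain. Uniqueness was the share of 50-mers that recur on either strand of GRCm38.p6. Motifs were searched on both strands, hairpins on the sense strand after every annotated stop codon. Named genes were those without an H3K4me3 peak, the testis genes, the 3 widest, narrowest, strongest and weakest peaks, the longest domain of each run, the smaller loci and the listed histone and processing genes. Other genes were named as examples after their values were seen. The members and lists were chosen with earlier results of these data known. Alternatives changed the window, the start, the peaks, the domain gap or the genes. Interval code was tested on simulated data and checked against bedtools 2.31.1. Python 3.11.15, numpy 2.4.6, pandas 2.3.3, biopython and matplotlib were used. The PLAC-seq and input samples were not analysed here.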

Additional observations from a re-analysis of the deposited data

How the results depend on the processing

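No paired analysis was possible because each list stands for both replicates, and for the same reason no replicate could be left out. An H3K4me3 peak at the start was found at 59.7% of histone genes when it had to cover the start base, at 77.6% with the widest 50.0% of the H3K4me3 peaks and at 98.4% without the 6 genes of the inverted repeat, against 89.6% as reported. With a window of 500 bp, any transcript start, a −log10 q of at least 5, the start codon or the 19 genes with at most 10% recurring 50-mers it stayed within 88.1 to 94.7%. An ATAC-seq peak was found at 89.5% of those 19 genes, against 97.0%, since Hist1h1t and Hist1h1d are among them, and at 95.5 to 98.5% under the other settings. Both peaks were present at 58.2% with the start base covered and at 96.7% without the 6 genes, against 88.1%, and at 88.1 and 89.6% with 500 bp and with the start codon. The number of domains was 57 when only touching peaks were joined and 24 with gaps of up to 3 kb, against 31, with a median of 2 genes a domain each time. The medians of width and fold enrichment did not move with a −log10 q of at least 5. The start codon and the removal of the 6 genes were chosen after seeing the data. The unknown depth means that a missing peak may lie below detection.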

Other observations

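The pseudogenes with histone symbols were not among the 67 genes. Hist1h2aj, an unprocessed pseudogene of H2A next to Hist1h2bm, had 3 H3K4me3 peaks within 1 kb of its start, the strongest with a fold enrichment of 15.4. It also had an ATAC-seq peak of 1115 bp. All of these are the peaks of its neighbour Hist1h2bm as well. Hist3h2bb-ps had an H3K4me3 peak of 18.2, which is the peak of its neighbour Hist3h2a, and an ATAC-seq peak of 1190 bp. Hist1h2al lies on chromosome 13 outside the runs (chr13:51202727-51203065) and had an H3K4me3 peak of 4.15 and 2 ATAC-seq peaks of up to 727 bp.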
